A study of Mus musculus with 12 samples.

Results

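Hearts under pressure overload were compared between mice fed a high-fat diet and mice fed a fat-free diet. The comparison used 3 high-fat TAC and 3 fat-free TAC libraries, chosen by the diet and surgery in their labels, which is 6 of the 12 libraries in the labels and 6 of the 11 that had a column of values. All animals were C57Bl/6J mice, 12 weeks old and with no transgene or deletion named in the labels. Food held either 0 or 60 kcal% fat and was given from 4 days before surgery until the hearts were taken, 1 week after it. All 6 hearts had undergone transverse aortic constriction (TAC), in which a band narrows the aortic arch and the left ventricle has to pump against raised pressure. Sham hearts of the same diets, 3 fat-free and 2 high-fat libraries, were operated on without constriction and stand beside the TAC values where they bear on them. RNA was poly(A)-selected from heart tissue with no cell sorting. The labels name no diet of intermediate fat content, do not say whether a library came from 1 animal, and give no hour at which the hearts were taken. P-values below measure the spread between libraries, which may be technical. The libraries of each diet were deposited in a table of their own, scaled separately, so diet and table cannot be told apart in any value that follows.

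The adult heart burns mostly fatty acids, and the nuclear receptor PPARα, which fatty acids activate, turns on genes of their uptake, oxidation and ketone production. Insulin works in the other direction, through receptor substrates and the kinase AKT, which holds FOXO transcription factors out of the nucleus. Heart muscle also carries a circadian clock. CLOCK or NPAS2 pairs with BMAL1, the product of Arntl, on the DNA letters CACGTG (E-box) and drives the period, cryptochrome and REV-ERB genes, which then repress that pair. The clock's output factors DBP, TEF and HLF bind a second element, the D-box, and meal composition and timing are known to shift clocks in peripheral organs.

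Most clock genes differed between the diets without overlap, so 3 of their promoters, 2 that hold E-box letters and 1 that holds D-box letters, are printed first. Each runs from 250 bases before to 50 bases after a transcription start and is given 5′ to 3′ on the gene's strand, from RefSeq on build GRCm38.p6. Capitals mark each E-box (CACGTG) and each D-box (TTATGTAA), searched on both strands. The Ciart window is chr3:95882179-95882478 on the reverse strand and holds 3 E-boxes. The Tef window is chr15:81802423-81802722 on the forward strand and holds 1 E-box. The Per3 window is chr4:151044616-151044915 on the reverse strand and holds 2 D-boxes and no E-box.
Ciart: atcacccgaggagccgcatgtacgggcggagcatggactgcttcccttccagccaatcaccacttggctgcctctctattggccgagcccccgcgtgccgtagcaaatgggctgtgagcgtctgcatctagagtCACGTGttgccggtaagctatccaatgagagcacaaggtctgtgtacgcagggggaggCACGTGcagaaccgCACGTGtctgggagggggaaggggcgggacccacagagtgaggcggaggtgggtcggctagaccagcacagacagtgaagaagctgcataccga
Tef: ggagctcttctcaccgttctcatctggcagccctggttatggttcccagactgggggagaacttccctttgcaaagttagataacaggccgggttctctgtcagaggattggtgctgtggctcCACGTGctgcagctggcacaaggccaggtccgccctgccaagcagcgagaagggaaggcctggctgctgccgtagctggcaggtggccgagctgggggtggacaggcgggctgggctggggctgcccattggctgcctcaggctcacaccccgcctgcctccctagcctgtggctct
Per3: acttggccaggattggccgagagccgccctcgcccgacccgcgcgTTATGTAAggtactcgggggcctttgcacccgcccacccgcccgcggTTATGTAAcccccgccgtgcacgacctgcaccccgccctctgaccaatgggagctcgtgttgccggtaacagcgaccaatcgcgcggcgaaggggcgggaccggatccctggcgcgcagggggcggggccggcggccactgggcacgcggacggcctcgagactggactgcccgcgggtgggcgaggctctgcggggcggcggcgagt
Of all 32851 promoters in the same RefSeq set, 7.15% held an E-box and 0.938% a D-box. Of the 20 tested genes of the clock list 17 had a promoter entry, and 5 of these (Bhlhe41, Ciart, Cry1, Per1 and Tef) held an E-box and 1 (Per3) a D-box. A gene was counted if any of its entries held the letters. Clock had 3 entries and Arntl, Per1 and Tef 2 each, so this count of genes is not on the scale of the share of promoters. The Tef window printed is 1 of its 2. Dbp, Arntl, Clock and Npas2 had neither in any of their windows, which says only that these letters are not within these bases.

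The values are normalised read counts, brought to 1 scale over the 6 TAC libraries. The summed counts as deposited ran from 25906622 to 31499798 over these libraries. High-fat TAC replicate 1 stood apart from the other 5, at -64.2 on a first principal component that carried 51.9% of the variance and on which the others lay between -11.0 and 39.7. The second component carried 18.0% and separated the diets, with the fat-free libraries between -20.6 and -5.96 and the high-fat libraries between -4.02 and 33.3. Myl7, the atrial myosin light chain, was at 14258, 9.7 and 5.7 in the high-fat TAC libraries, replicates 1 to 3 in that order as in every list of values here, and at 1810, 23.8 and 79.1 in the fat-free TAC libraries. The 10 atrial muscle markers summed to 483045, 34405 and 103330 on high fat and to 57655, 69798 and 43295 on fat-free food. Most of each sum was Nppa, at 386806, 32745 and 102107 against 48750.5, 68749.9 and 41135. Nppa also marks pressure overload, so in TAC hearts the sum does not measure atrial tissue alone. The 8 ventricular markers, which include Myl2, Myh6 and Tnni3, summed to 523114, 1147483 and 998828 against 1078064, 1095391 and 1475753. Their sum was lowest in high-fat TAC replicate 1. The 8 adipocyte markers summed to 2716, 9.7 and 5.7 against 571, 42.4 and 24.3, and the share of counts from the mitochondrial genome was 18.1% in high-fat TAC replicate 1 and between 20.8% and 25.3% in the other 5. In whole tissue, fewer cells of a type and less RNA per cell cannot be told apart. Counts and medians of gene lists are therefore also given without high-fat TAC replicate 1 where that moves them. With that library left out the groups hold 3 and 2 libraries, and 16.7% of all genes were then higher and 15.8% lower without overlap.

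**Figure D1:**
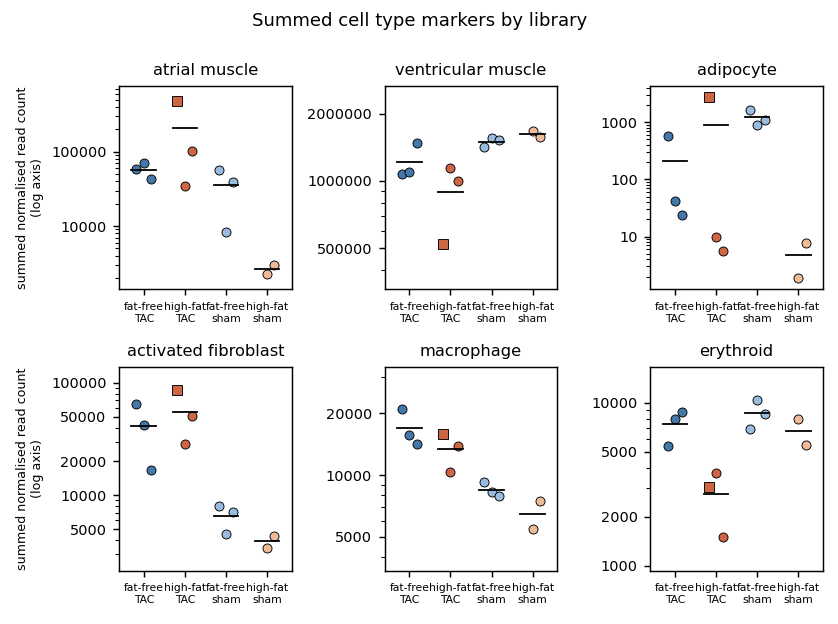
Summed normalised read counts of 6 lists of cell type markers in each library (points, log axis) with the group mean (line) for fat-free and high-fat TAC and sham hearts; the square is high-fat TAC replicate 1. That library has the highest atrial, adipocyte and activated fibroblast sums and the lowest ventricular sum, and the erythroid sums of the 3 high-fat TAC libraries all lie below those of the 3 fat-free TAC libraries. Nppa, which also marks pressure overload, makes up most of the atrial sum in every TAC library.

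Of 14020 genes tested with limma on the 6 libraries, 0 (0%) passed a Benjamini-Hochberg adjusted p of 0.1, and the smallest adjusted p was 0.336. At an unadjusted p under 0.05 there were 1737 genes (12.4%), of which 872 were higher (6.22%) and 865 lower (6.17%) on high fat. The groups did not overlap for 2881 genes (20.5%), of which 1451 were higher (10.3%) and 1430 lower (10.2%) on high fat. Placing all 11 libraries in 1 model of 4 groups, which shares the spread with the sham hearts, gave 57 calls among 14678 genes (0.388%), 27 higher (0.184%) and 30 lower (0.204%). In all 57 the TAC groups did not overlap. The same model without high-fat TAC replicate 1 gave 0 calls, with 2207 genes at an unadjusted p under 0.05 and a smallest adjusted p of 0.102. The differences of the 57 genes were there 0.823 to 1.14 times their size with all 11 libraries (median 0.964). Their direction could hardly reverse, since their TAC groups did not overlap and they were chosen on the same values. With log2 Myl7 as a covariate, added after seeing the data, that model gave 2281 calls. The calls were also lost when a line on the base composition of the transcripts was removed, as described further on. Leaving fat-free TAC replicate 1 out of the 6 gave 6 calls, with Arntl, Nrep and 2210407C18Rik, known by a clone name, higher and Ciart, Irs2 and Nr4a1 lower. Below, "rose" and "fell" are used only for the 57 genes of the 11-library model, and all differences are log2 of high fat over fat free on the value plus 1, from the 6 libraries unless stated.

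Clock genes were largely separated between the diets, in both directions. Of 20 tested genes in the list of clock and output genes, 3 were higher and 13 lower on high fat with no overlap, against 10.3% and 10.2% of all genes. By limma 3 and 12 of them had an unadjusted p under 0.05, against 6.22% and 6.17% of all genes. In the 11-library model Clock rose and Dbp, Ciart and Bhlhe40 fell. The list's median difference was -0.64 with all 6 libraries, -0.56 without high-fat TAC replicate 1 and -0.18 in the sham hearts, beside a median of 0.00 over all genes in each. Cry1, Nr1d2 and Nfil3 were among the 4 genes whose groups overlapped, with differences of 0.16, -0.46 and -0.01.

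The activating arm stood higher on high fat. Arntl (chr7:113207465-113314126, forward strand, gene ID 11865 in the deposited table, whose reads were mapped to mm10 per the submitters' processing notes) was at 580.3, 475 and 517 on high fat and 353, 136 and 112 on fat-free food. The lowest high-fat library lay above the highest fat-free one, and the difference was 1.57 ± 0.41 (SE, n = 3 and 3; limma adjusted p = 0.336). Npas2, a partner of BMAL1 that can replace CLOCK, was at 139, 152 and 164 against 81.3, 46.6 and 63.3, again with no overlap, a difference of 1.27 ± 0.23. Clock, which encodes the other partner, was at 1666, 1426 and 1579.9 against 1128, 1104 and 970.3 and rose by 0.55 in the 11-library model (adjusted p = 0.0956). Its sham values were 1374 and 1367 on high fat and 1081, 1291 and 1265 on fat-free food.

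Several genes of the repressing arm were lower without overlap, while Cry1, Nr1d2 and Nfil3 overlapped as given above. Per2, whose protein blocks CLOCK and BMAL1 together with cryptochromes, was at 153, 146 and 92.9 on high fat and 237, 346 and 634 on fat-free food, a difference of -1.54 ± 0.38. Per3 was at 243, 316 and 197 against 386, 458 and 827 and Per1, which stress hormones also induce, at 1566, 813 and 1086 against 1912, 2238 and 2008. None of the 3 period genes overlapped between the diets. Cry2 was at 479, 700.2 and 488 against 723, 782 and 1077, and Nr1d1, which encodes the heme-binding repressor REV-ERBα, at 1576, 1717 and 1456 against 2656, 1863 and 1844. Bhlhe40, a repressor that competes for E-boxes, was at 1381, 1514 and 1384 against 2063, 2677 and 1999.6 and fell, with a difference of -0.64 ± 0.12 and an adjusted p of 0.0935 by limma in the 11-library model. Its sham values were 1623 and 1572 against 1648, 1600 and 1393, a difference of 0.05. Bhlhe41, its close relative, was at 363, 251 and 324 against 519.9, 579 and 448, lower in every high-fat library.

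The output genes stood lower as well. Dbp (chr7:45705247-45710203, forward strand, gene ID 13170) was at 649, 997 and 756 on high fat and 2044, 3324 and 4488 on fat-free food. Every high-fat library lay below every fat-free library, and Dbp fell by 1.98 on the log2 scale (SE 0.258, adjusted p = 0.0787, limma, 11 libraries). Ciart (chr3:95878505-95882228, reverse strand, gene ID 229599), which encodes a repressor of CLOCK and BMAL1, was at 58.6, 38.7 and 35.4 against 150.3, 416 and 462 and fell by 2.80 (SE 0.385, adjusted p = 0.0787). Its promoter carries the 3 E-boxes shown above. Tef was at 1776, 2769.7 and 2005 against 3213, 4219 and 5635, Hlf at 201, 424 and 162 against 467, 471 and 760.4, and Usp2, a clock-controlled deubiquitinase, at 1415, 2507 and 2038 against 2655, 3679.8 and 4028. All 3 were lower in every high-fat library, with differences of -0.98, -1.20 and -0.81, and none passed the threshold. Klf15, a cardiac factor that follows the clock and regulates nutrient use, was at 648, 1135 and 922 against 1626, 1478 and 2234, lower without overlap (-0.99 ± 0.24).

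**Figure D2:**
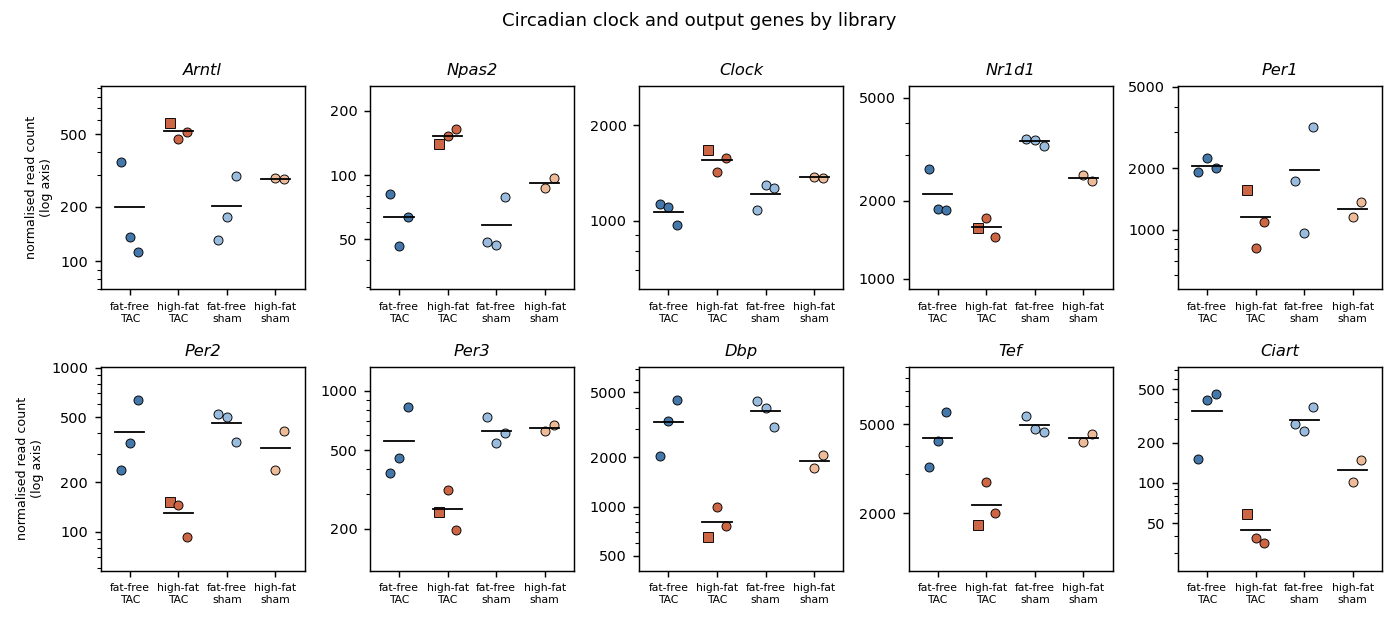
Normalised read counts of 10 clock and output genes in each library (points, log axis, a range of its own per gene) with the group mean (line) for the 4 groups; the square is high-fat TAC replicate 1. In the TAC hearts Arntl, Npas2 and Clock are higher and the other 7 lower on high fat with no overlap, and the square lies within or next to the other high-fat TAC points.

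In the sham hearts some of these genes differed in the same direction and others did not. Dbp was at 1726 and 2061 in the high-fat sham libraries, replicates 2 and 3, and 4452, 4016 and 3091 in the fat-free ones, and Ciart at 102 and 148 against 276, 246 and 371, neither overlapping. Per3 was at 623 and 668 against 735, 546 and 608 and Tef at 4162 and 4515 against 5413, 4778 and 4619, with differences of 0.05 and -0.18. Over the list 2 genes were higher and 8 lower without overlap in sham hearts, where 18.1% of all genes were higher and 17.6% lower without overlap. No clock gene passed the test of the difference between the TAC and sham diet differences, whose smallest adjusted p over all genes was 0.809.

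Immediate early genes, which cells switch on within minutes of a stimulus, and glucocorticoid targets stood lower on high fat. Of 25 tested, 0 were higher and 10 lower without overlap, beside 10.3% and 10.2% of all genes. Without high-fat TAC replicate 1 the counts were 1 and 14, beside 16.7% and 15.8% of all genes. In the 11-library model 1 of them, Ier2, fell. The list's median difference was -0.60, -0.73 without high-fat TAC replicate 1 and -0.74 in sham hearts. Nr4a1 (chr15:101266846-101274795, forward strand, gene ID 15370), an orphan nuclear receptor induced by adrenergic and calcium signals, was at 509, 514 and 394 against 942, 2278 and 2274. Each high-fat library lay below each fat-free one, and the difference was -1.85 ± 0.35 (limma adjusted p = 0.336). Nr4a3, its relative, was at 24.0, 25.1 and 20.1 against 46.3, 96.3 and 169, and Egr1, a growth-induced transcription factor, at 367, 602 and 317 against 636, 822 and 742. Ier2 was at 369, 395 and 405 against 526, 562 and 649.7, with an adjusted p of 0.0903 by limma over 11 libraries. Fos did not share this pattern in TAC hearts, where its values overlapped at 197, 128 and 94.8 against 136, 454 and 136, although its sham values were 73.4 and 101 against 824, 404 and 375. Among glucocorticoid targets Zbtb16 was at 367, 589.9 and 781 against 995, 1234 and 1169, Fkbp5 at 1023, 542 and 920.2 against 1686, 1551 and 1073 and Sgk1 at 3311, 2801 and 3817 against 4281, 3965 and 4666. These 3 were lower in every high-fat library.

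Among genes of insulin signalling the smallest unadjusted p of all 14020 genes fell on Irs2 (chr8:10986961-11008430, reverse strand, gene ID 384783), which encodes an insulin receptor substrate that FOXO factors induce in fasting. It was at 112, 108 and 98.6 on high fat and 273, 469.9 and 499.9 on fat-free food. The 3 high-fat values lay close together and all below the lowest fat-free value, with a difference of -1.90 ± 0.24 and an adjusted p of 0.336 by limma, which is not past the threshold. Irs1, the other main substrate, differed the opposite way, at 787, 1225 and 914 against 731, 534 and 569.5 (0.66). Foxo3 was at 352, 445 and 364 against 689.8, 600.4 and 881, Akt1 at 4746, 4795 and 4848 against 6202, 5808 and 6904 and Eif4ebp1, the translation brake downstream of mTOR, at 2193, 2164 and 2271 against 2754, 3100.1 and 3649. Each of these 3 was lower in every high-fat library. Over the 24 genes of the list 2 were higher and 6 lower without overlap, beside 10.3% and 10.2% of all genes, and the median was 0.05. Without high-fat TAC replicate 1 the counts were 6 and 6, beside 16.7% and 15.8% of all genes. In sham hearts the differences were -1.59 for Irs2, -0.88 for Foxo3 and -0.38 for Akt1.

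Targets of the fatty acid receptors mostly overlapped between the diets in TAC hearts. Of 25 tested, 3 were higher and 0 lower without overlap, a share of 12% beside 20.5% of all genes, and the median was 0.04. Angptl4 (chr17:33774900-33781575, reverse strand, gene ID 57875), a secreted inhibitor of lipoprotein lipase, was at 1326, 811 and 1956 on high fat and 489, 675 and 116 on fat-free food, a difference of 1.92 ± 0.66 (limma adjusted p = 0.361). Cpt1a, a gate for fatty acids into mitochondria, was at 1667, 1730.1 and 1792 against 1642, 1349 and 1271. The ranges of both did not overlap, and neither passed the threshold.

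Some other targets, such as Acot1 and Cd36, were above the fat-free range in high-fat TAC replicates 2 and 3 but not in replicate 1. Acot1, a thioesterase that splits fatty acyl-CoA, was at 108, 589.9 and 228 against 145, 71.4 and 101. Cd36, the main fatty acid transporter of heart muscle, was at 29521, 66639.6 and 61865 against 39477, 35251 and 42419.7. The lipid droplet protein gene Plin5 was at 1437, 4933 and 3477 against 3246, 3009 and 3518, above the fat-free range in replicate 2 alone. Pdk4, which holds back glucose oxidation, overlapped at 18033, 29009.5 and 31399 against 23044, 23673 and 11252. Without high-fat TAC replicate 1, 11 of the 25 targets were higher and 0 lower without overlap, beside 16.7% and 15.8% of all genes. The median was then 0.33. The Cd36 difference was then 0.72 in place of 0.35, and that of Plin5 0.35 in place of -0.16. In sham hearts 17 targets were higher and 1 lower without overlap, beside 18.1% and 17.6% of all genes, with a median of 0.42.

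Mitochondrial energy genes moved with the same library. The median difference over 22 beta-oxidation genes was -0.20 with all 6 libraries and 0.15 without high-fat TAC replicate 1. Over 72 nuclear genes of oxidative phosphorylation it was -0.31 and -0.11. Of these 72, 0 were higher and 13 lower without overlap among the 6 libraries, a share of 18.1% beside 20.5% of all genes. Without high-fat TAC replicate 1 the counts were 1 and 14, where 32.4% of all genes were apart. Over 22 genes of the tricarboxylic acid cycle the 2 medians were -0.35 and -0.11. They were -0.36 and -0.14 over 21 genes of branched-chain amino acid breakdown, and -0.35 and -0.11 over 25 adult contractile and calcium handling genes. Idh2, which makes NADPH in mitochondria, shows the pattern at 15913, 42618 and 30028 on high fat against 45460, 43737 and 72177, with high-fat TAC replicate 1 far below its 2 companions and a narrow gap between the groups. The ventricular marker sum, lowest in that library, moved with these lists, and its part in them was not tested. Tcap, a titin-capping protein of the Z-disc, fell in the 11-library model (adjusted p = 0.0956, limma), at 17180.3, 29939 and 21684 against 40594, 44449 and 55358, and its difference was -0.87 without that library. Ttn, the giant spring protein of the sarcomere, was at 66908, 73562 and 79296 against 44744, 45142 and 65769.9, higher without overlap.

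Genes of glucose uptake and glycolysis were apart between the diets about as often as all genes. Slc2a4, the insulin-responsive glucose transporter GLUT4, was at 4085, 9362 and 7309.7 on high fat and 9579, 10328 and 15073 on fat-free food, a difference of -0.80 ± 0.32 that was -0.47 without high-fat TAC replicate 1. Over 36 genes of glucose uptake and glycolysis 1 was higher (Pgam1, at 635, 406 and 445 against 325, 376 and 274) and 7 lower without overlap, a share of 22.2% beside 20.5% of all genes, with a median of -0.21. Without high-fat TAC replicate 1 the counts were 3 and 8, beside 16.7% and 15.8% of all genes.

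Genes of fatty acid synthesis, which carbohydrate-rich food induces in liver, gave 1 higher and 5 lower of 29 without overlap in TAC hearts, a share of 20.7% beside 20.5% of all genes. Without high-fat TAC replicate 1 the counts were 1 and 10, beside 16.7% and 15.8% of all genes. Srebf1, the factor that switches on fat synthesis, was at 681, 659.5 and 608 against 989, 729.7 and 899.6, and Mid1ip1, an activator of acetyl-CoA carboxylase, at 914, 2209 and 1835 against 2237, 3649 and 3868. Tecr, the last enzyme of fatty acid elongation, was at 3396, 8498 and 6536 against 9141, 10109.8 and 13239. All 3 were lower in every high-fat library. Me1, the cytosolic malic enzyme that supplies NADPH, was the higher one, at 3006, 4516 and 3620.4 against 2954, 2683 and 2707. Scd1, the main desaturase, overlapped at 1341, 430.4 and 442 against 3049, 849.8 and 579, and Fasn, fatty acid synthase, at 807, 612 and 592 against 1352, 688 and 731. For both genes the overlap came from high-fat TAC replicate 1, and replicates 2 and 3 lay below every fat-free TAC library. In sham hearts Scd1 was at 296 and 464 against 5026, 1977 and 2052 and Fasn at 457 and 385 against 1984, 1207 and 972, neither overlapping. The difference between the TAC and sham values passed the threshold for neither. The adipocyte markers summed to 1.9 and 7.6 in the high-fat sham libraries and to 1650, 906.5 and 1079 in the fat-free sham libraries. Their part in the sham values of Scd1 and Fasn was not tested.

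**Figure D3:**
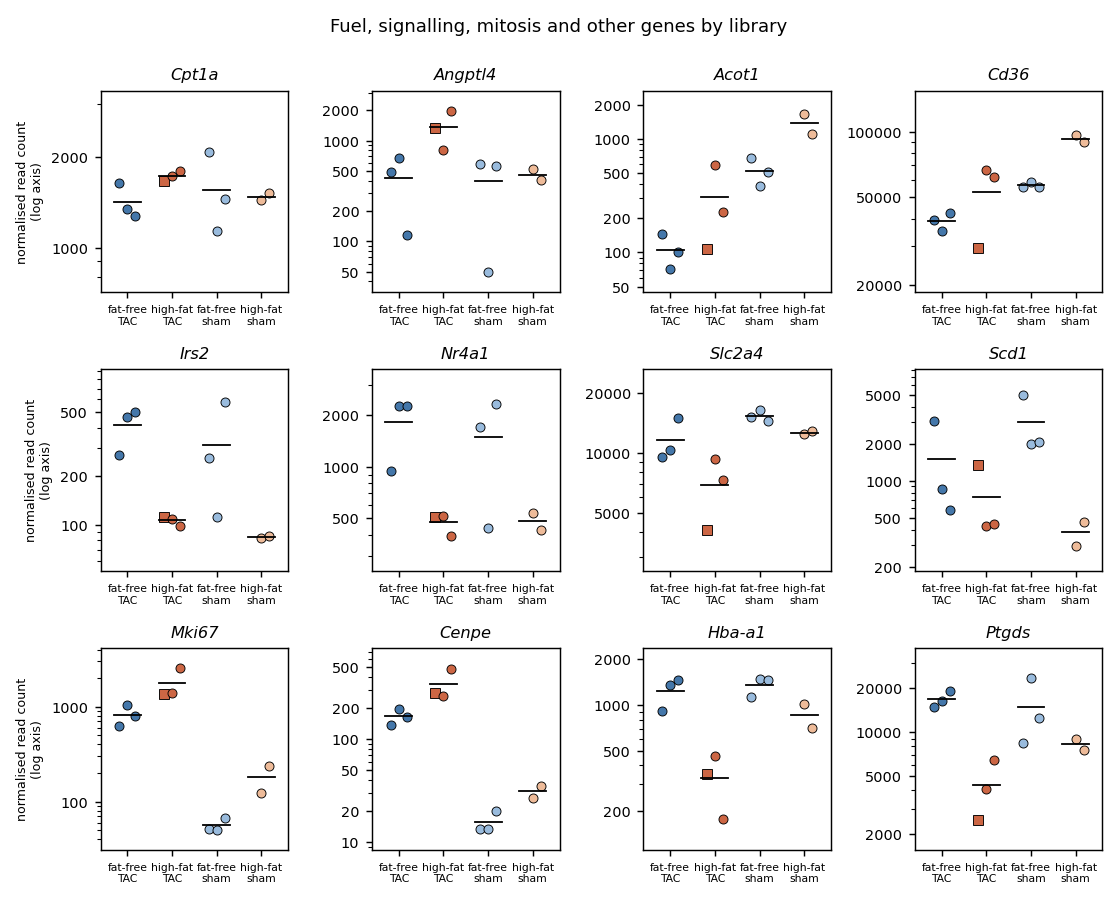
Normalised read counts of 12 genes in each library (points, log axis, a range of its own per gene) with the group mean (line) for the 4 groups; the square is high-fat TAC replicate 1. Cpt1a, Angptl4, Mki67 and Cenpe are higher and Irs2, Nr4a1, Slc2a4, Hba-a1 and Ptgds lower in all 3 high-fat TAC libraries, while the square sits among or below the fat-free TAC points for Acot1 and Cd36.

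Mitotic genes stood higher on high fat. Of 31 tested cell cycle genes 11 were higher and 0 lower without overlap, beside 10.3% and 10.2% of all genes. By limma 15 had an unadjusted p under 0.05, all of them higher, as did 6.22% of all genes. None passed the adjusted threshold. The median difference was 0.66, and 0.79 without high-fat TAC replicate 1. In that case 15 were higher and 0 lower without overlap, beside 16.7% and 15.8% of all genes. Mki67, the proliferation marker Ki-67, was at 1378, 1386 and 2591 on high fat and 630.1, 1054 and 797 on fat-free food, a difference of 1.07 ± 0.29 (limma adjusted p = 0.338). Cenpe, a kinetochore motor, was at 281, 264 and 479 against 137, 197 and 164, Top2a, the topoisomerase that untangles chromosomes, at 1088, 1167 and 1899.7 against 586, 1044 and 658, and Kif20a, a motor of cytokinesis, at 395, 398 and 589 against 223, 332 and 224. For each, the lowest high-fat library lay above the highest fat-free library, and high-fat TAC replicate 3 was the highest of all. The replication licensing genes Mcm2, Mcm3, Mcm5 and Mcm6 did not show this, with differences of -0.01, 0.07, 0.03 and 0.15. The sham level of Mki67 was 124 and 238 on high fat and 51.9, 49.9 and 66.7 on fat-free food. The sham differences were 1.61 for Mki67, 0.95 for Cenpe, 0.05 for Top2a and 0.29 for Kif20a. Over the list 7 genes were higher and 2 lower without overlap in sham hearts, beside 18.1% and 17.6% of all genes. The sham median of the list was 0.29.

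Erythroid genes stood lower. The erythroid markers, 5 of which were tested, summed to 3058, 3716 and 1496 on high fat and 5478, 7920.5 and 8769.5 on fat-free food. The groups did not overlap, and an exact permutation test over the 6 libraries gave a two-sided p of 0.1, the smallest that 20 splits allow. Alas2, the first enzyme of heme synthesis in red cell precursors, was at 81.7, 158 and 57.5 against 269.7, 386 and 417 and fell (-1.94 ± 0.32, adjusted p = 0.0903, limma, 11 libraries). Hba-a1, an alpha globin gene, was at 349.7, 458 and 179 against 909, 1359 and 1458 and fell in the same model (adjusted p = 0.0898). Its near-identical copy Hba-a2 was at 202, 139 and 60.3 against 180.2, 278 and 342, so the split of reads between the copies is uncertain. Hbb-bs, an adult beta globin gene, was at 2390.5, 2935 and 1184 against 4092, 5859.7 and 6503.

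Macrophage markers gave 0 higher and 4 lower of 14 without overlap, a share of 28.6% beside 20.5% of all genes. Without high-fat TAC replicate 1 the counts were 0 and 6, beside 16.7% and 15.8% of all genes. The median difference was -0.13, and -0.36 without that library. The marker sums overlapped, at 15909, 10393 and 13938 on high fat against 21121, 15683 and 14241. C1qa and C1qc, subunits of the complement starter C1q, were at 2419, 1545 and 2335 against 3869, 2763 and 2705 and at 2184, 1436 and 2189 against 3726, 2506 and 2576. Cd163, a scavenger receptor of resident macrophages, was at 519.8, 398 and 318 against 679.5, 528 and 585, and Lyve1 at 848, 787 and 484 against 888, 1097 and 873. These are the 4 markers that did not overlap, and none of them passed the threshold. Mgl2, a lectin of macrophages and dendritic cells that is not in the list, fell in the 11-library model, at 98.0, 141 and 108 against 213, 317 and 272 (adjusted p = 0.0903, limma).

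Genes that mark pressure overload were apart between the diets about as often as all genes. Of 20 tested fetal and hypertrophy genes 1 was higher and 3 were lower without overlap, a share of 20% beside 20.5% of all genes. Nppa, atrial natriuretic peptide, was at 386806, 32745 and 102107 on high fat and 48750.5, 68749.9 and 41135 on fat-free food. The first high-fat value again belonged to the library with the most Myl7. Acta1, skeletal alpha actin, was at 49745, 45827 and 90625 against 61151, 178811 and 90467, and Myh7, the slow myosin heavy chain, at 20307, 23679.9 and 25909 against 40822, 29362 and 26396, a difference of -0.45 ± 0.21 with no overlap and a narrow gap. Postn, a matricellular protein of activated fibroblasts, was at 57469, 19338 and 34663 against 45935, 29565 and 10156 and Col1a1, which encodes fibrillar collagen, at 51717, 11382 and 14514 against 30375, 11154 and 5390.4. Both overlapped widely. Over 50 genes of extracellular matrix 1 was higher and 0 lower without overlap, a share of 2% beside 20.5% of all genes. Without high-fat TAC replicate 1 the counts were 1 and 4, beside 16.7% and 15.8% of all genes. The median of 0.46 then became 0.08. Over 32 interferon response genes 0 were higher and 0 lower without overlap, beside 20.5% of all genes, with a median of -0.08. Without high-fat TAC replicate 1 the counts were 9 and 0, beside 16.7% and 15.8% of all genes, with a median of 0.13.

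**Figure D4:**
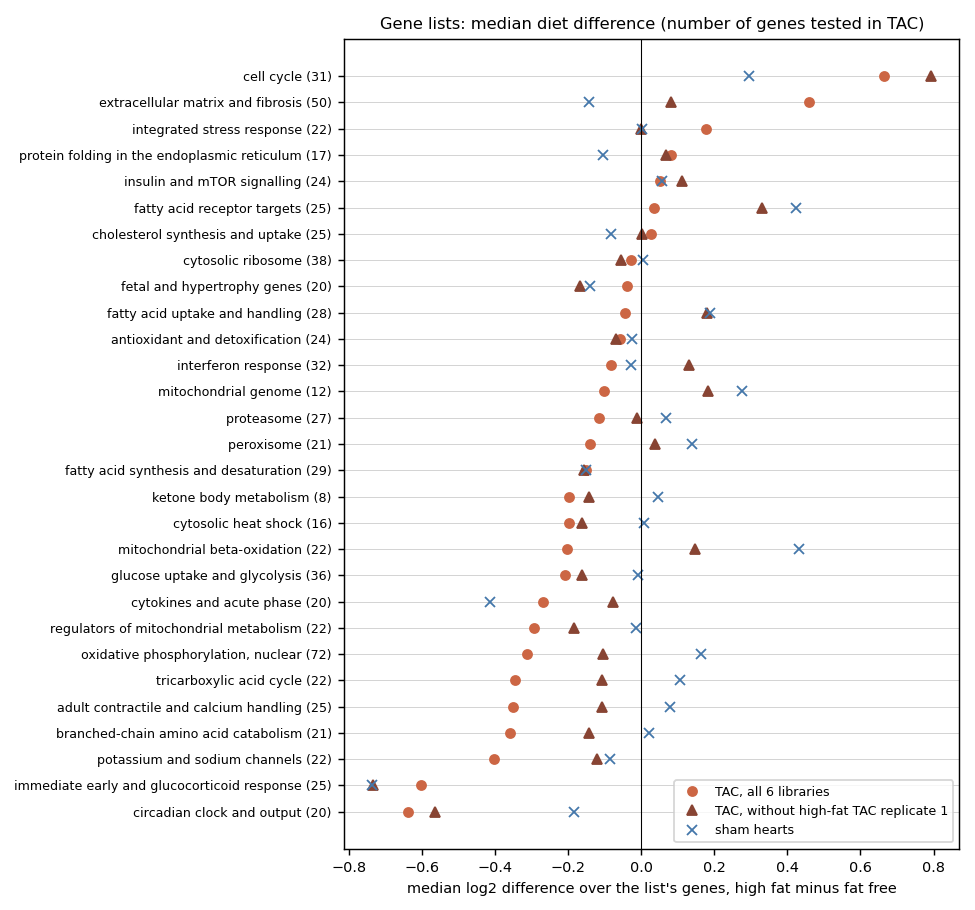
Median log2 difference of high fat over fat-free food over the genes of 29 function lists (number tested in parentheses), in TAC hearts with all 6 libraries (circles), without high-fat TAC replicate 1 (triangles) and in sham hearts (crosses). The clock, immediate early and cell cycle medians lie at -0.64, -0.60 and 0.66 and move to -0.56, -0.73 and 0.79 when the library is left out, while the lists of fatty acid receptor targets, beta-oxidation and matrix move from 0.04 to 0.33, -0.20 to 0.15 and 0.46 to 0.08.

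Several further genes were among the 57 called with 11 libraries. Higher were Ypel2, at 783, 738 and 595 on high fat against 350.1, 183 and 336, and Marcks, a substrate of protein kinase C that binds actin, at 3931, 3071 and 3710.4 against 2488, 1715 and 1605. Tspan2, a tetraspanin, was at 651, 561 and 552 against 353, 325 and 349, and G2e3, a ubiquitin ligase, at 268, 313 and 379 against 198, 169 and 159. Igip and Klhl4 were also among them, with differences of 0.80 and 0.80. Each was higher in every high-fat TAC library.

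Lower was Ptgds (chr2:25466712-25469749, reverse strand, gene ID 19215), which makes prostaglandin D2 and carries lipids, at 2512, 4071 and 6468 against 14966, 16365 and 19121, and it fell by 2.04 on the log2 scale. Cebpb, a factor of acute phase and fat cell programmes, was at 813, 752 and 855 against 1248, 1439.8 and 1999. Id1, a target of BMP signalling that blocks bHLH factors, was at 782, 872 and 779 against 1278, 1435 and 1688, and Dedd2 at 213, 281 and 209.7 against 359, 388 and 494. All 4 were lower in every high-fat TAC library, with limma adjusted p between 0.0787 and 0.0935. Of the 57 genes 54 differed in the same direction in sham hearts, and the share over all genes was not counted. The sham and TAC libraries of a diet share a table, so this does not tell diet from table. Pim3, a survival kinase, and Spon2, a secreted matrix protein, had among the smaller unadjusted p with 6 libraries but passed in neither model. Pim3 was at 1391, 1574 and 1741 against 2898, 2649.8 and 2857 and Spon2 at 454, 338 and 365 against 182, 136 and 126, both without overlap.

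The diet difference followed the base composition of the transcripts. Over 13548 tested genes with a GC content from the GENCODE transcripts (96.6% of those tested), the correlation of GC percent with the diet difference was -0.33 in TAC and -0.19 in sham hearts, a description across genes, which are not replicates and share libraries. Among 10 equal groups of genes by GC, the group with the lowest, at a median of 39.7%, had a median TAC difference of 0.20, and the group with the highest, at 59.6%, had one of -0.19. The 27 genes called higher, 24 of them with a GC value, had a median GC of 40.8% and a median length of 4362 bases, and the 30 called lower 57.7% and 1571.5 bases, beside 49.8% and 2859.5 bases over all genes tested. Removing a line on GC from each library left 0 calls in the 11-library model, with 1635 genes at an unadjusted p under 0.05. The clock median was then -0.63, the cell cycle median 0.65 and the immediate early median -0.56, each from the 6 libraries. Dbp was at -1.75, Ciart at -2.75, Irs2 at -1.77 and Arntl at 1.54 after the same step. Other named genes shrank more. Clock went from 0.54 to 0.37, Ier2 from -0.57 to -0.35 and Cebpb from -0.93 to -0.58. Akt1 went from -0.39 to -0.19 and Igip from 0.80 to 0.56. The median GC of the clock list was 52.3% and that of the cell cycle list 47.3%.

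**Figure D5:**
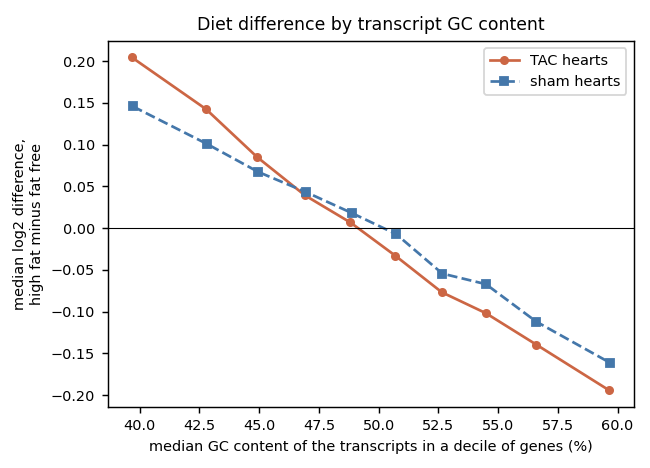
Median log2 difference of high fat over fat-free food in 10 equal groups of the tested genes ordered by transcript GC content, plotted at the median GC of each group, for TAC hearts (circles) and sham hearts (squares). Both lines fall steadily, from 0.20 to -0.19 in TAC and from 0.15 to -0.16 in sham hearts.

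Beside the TAC hearts, the sham hearts gave 1 call for diet among 14678 genes (0.00681%), a gene with no symbol in the deposited table, and 1612 genes (11.0%) at an unadjusted p under 0.05 by limma. The difference between the TAC and the sham diet differences, in which any factor that is the same for all libraries of a table cancels, passed the threshold for 0 genes (0%). At an unadjusted p under 0.05 it held 659 genes (4.49%). Without high-fat TAC replicate 1 it held 1 call, Cenpf, a kinetochore protein at 404, 747 and 661 against 517, 363 and 464 in TAC hearts and at 263 and 334 against 789, 678 and 719.9 in sham hearts (adjusted p = 0.0990).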

How the data were processed

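RNA of heart tissue was sequenced from stranded poly(A) libraries. The labels do not say whether atria were removed. Per the submitters' processing notes, STAR, Subread, featureCounts and DESeq2 were used with build mm10, and versions and strand settings are not given in the sources used here. The per-library values the authors deposited are normalised read counts, treated as a score since they are whole numbers already divided by a size factor within the table of their diet. The plan reserved count models for raw counts, so limma on log values was used instead. The deposited log2 fold changes and adjusted p-values of the authors compare TAC with sham and were not used.

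The 2 tables held 27179 genes each and were joined on gene ID. A column matched 11 of the 12 labelled libraries. The high-fat sham replicate numbered 1 is not analysed here. No symbol was given for 847 genes, and 27 stored as dates were restored by ID. Values were rescaled by the median of ratios over the libraries of each model, with factors between 0.948 and 1.04 over the 6 TAC libraries. Sham values are on the scale of all 11, where factors ran from 0.960 to 1.05. Genes with at least 10 in 3 of the 6 libraries (in 2 of the 11 for the model of 4 groups) were tested with limma 3.58.1 in R 4.3.3 with data.table (version 1.17.8) after adding 1 and taking log2, with trended prior variance, two-sided, at a Benjamini-Hochberg adjusted p under 0.1, after a check on simulated counts. Depth per library is known only through the deposited totals, and values near 10 are the least precise. GC content came from GENCODE M21 transcripts. Other tools were Python 3.11.15 with NumPy 2.4.6, pandas 2.3.3 and Matplotlib 3.10.9.

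The members, the 30 function and 18 marker lists and a set of genes reported whatever their result were chosen with earlier results of these data known. Some genes are not reported here. The rule for other names was the 10 largest rises and falls among calls with no overlap and a level above a minimum per library total. It names none with 6 libraries and was applied to the 11-library model. Other genes named were chosen after their values were seen. Replicate numbers were not taken to pair the libraries. Alternatives covered scaling, pseudocount, filter, test, libraries left out, Myl7 and GC content. Those with GC content, library weights, and the 11-library model without high-fat TAC replicate 1 or with Myl7 were chosen after seeing the data.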

Additional observations from a re-analysis of the deposited data

How the results depend on the processing

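With 3 libraries a diet and each diet in its own table, no alternative tells diet and table apart, and values of genes near the minimum of 10 are limited by depth. Of 26 alternatives to the TAC comparison, 4 gave any call. The 11-library model gave 57 (27 higher, 30 lower), the same model with log2 Myl7 as a covariate 2281 (951 higher, 1330 lower, all 57 among them), and leaving out the libraries above 1000 Myl7 counts 6 (3 higher, 3 lower: Arntl, Nrep, Ptn, Ciart, Irs2, Nr4a1). Leaving out 1 library at a time gave 0 to 6 calls, 0 to 3 in each direction, with the 6 only without fat-free TAC replicate 1. The cause was not tested. Library totals, totals without the mitochondrial genome and the values as deposited shifted the median of all genes by 0.10, 0.12 and 0.11, and the reversals they gave are within that shift.

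The deviations of same-numbered libraries correlated at 0.54, -0.24 and 0.16. Each replicate 1 held the most Myl7 of its diet's TAC libraries, so these values cannot show whether the numbers pair libraries. With the replicate block the TAC comparison kept 0 calls, with 1963 genes at an unadjusted p under 0.05 by limma. In sham hearts the block gave 4 calls (2 higher, 2 lower).

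In sham hearts the 1 call became 2 (1 lower) with library totals, 6 (3 higher, 3 lower) with no filter, 266 (148 higher, 118 lower) with the 5 sham libraries alone, and 0 to 5 (0 to 2 higher, 0 to 3 lower) leaving out 1 library. The difference of the diet differences gave 0 to 1 calls (0 to 1 higher) leaving out 1 library and 0 under the other settings run.

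The differences that reversed were those of Nfil3, Plin5, Postn and Myl7. Myl7, at -0.60 with 6 libraries, reversed when any of 3 libraries was left out. It was at 1.18 without fat-free TAC replicate 1, 1.02 without high-fat TAC replicate 2 and 1.35 without high-fat TAC replicate 3. In the order library total, total without the mitochondrial genome, upper quartile and values as deposited, Nfil3 was at 0.092, 0.107, 0.049 and 0.102. With the GC line removed Nfil3 was at 0.085 in the 6-library and 0.086 in the 11-library model, and Plin5 at 0.021 and 0.020. Plin5 was at 0.35 without the libraries rich in Myl7, 0.35 in the 11-library model without high-fat TAC replicate 1 and 0.11 with library weights. Leaving out 1 library gave a range of -0.18 to 0.20 for Nfil3, -0.54 to 0.35 for Plin5, -0.13 to 0.96 for Postn and -4.18 to 1.35 for Myl7.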
